A study of Homo sapiens with 9 samples.

Results

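Cornification is the last step of keratinocyte differentiation, and 10 of its genes are described here across HaCaT keratinocytes given low-dose photodynamic therapy. They were chosen by symbol: IVL, FLG, TGM1, SPRR1A, SPRR1B, SPRR2A, SPRR3 and SBSN, which make or assemble the cornified layer, and the transcription factors GRHL3 and OVOL1. They are 10 of the 58336 genes in the deposited tables, and 7 of them had enough counts to be tested. HaCaT is an immortalised line of human keratinocytes, grown here in serum-containing medium.

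The labels describe 9 libraries of HaCaT RNA in 3 groups of 3. Both treated groups received 5-aminolevulinic acid (ALA), the precursor from which cells make the photosensitiser protoporphyrin IX, at 0.5 mmol/L, and red light of 635 ± 5 nm at 3 J/cm2. RNA was taken 12 h after treatment in the first treated group and 48 h after it in the second, and the control group had no treatment. The tables name 3 columns A1 to A3, 3 columns B1 to B3 and 3 columns Nc1 to Nc3. Nc was read as control, and A and B as the treated groups. The labels do not spell these stems out, and no label ties A or B to a time, so the treated groups are called A and B and no time is given to either. The direction of each result against control rests on this reading. The labels do not say whether the libraries of a group came from separate cultures, so each p-value measures the spread between these libraries, which may be technical.

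When a keratinocyte cornifies, it builds a shell of cross-linked protein beneath its membrane and dies. Involucrin is laid down early as a scaffold, the transglutaminase TGM1 forms the cross-links, and the small proline-rich proteins (SPRR) act as cross-bridges. Filaggrin bundles keratin filaments inside the cell and is later broken down to moisture-binding amino acids. GRHL3 and OVOL1 are nuclear regulators that favour the terminal programme, and AP-1 factors bind the promoters of several of the structural genes.

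Of the 10 genes, 6 lie in the epidermal differentiation complex of chromosome 1, the cluster that holds most human genes of the cornified layer. Promoter windows of 300 bases, 250 before and 50 after the gene start, were found for 8 of the 10 in RefSeq on GRCh38.p14. No entry was found for TGM1 and OVOL1. The 4 windows shown belong to the genes whose levels differed between groups, and capitals mark the AP-1 motif TGACTCA or its reverse complement TGAGTCA.
IVL, chr1:152908296-152908595, plus strand: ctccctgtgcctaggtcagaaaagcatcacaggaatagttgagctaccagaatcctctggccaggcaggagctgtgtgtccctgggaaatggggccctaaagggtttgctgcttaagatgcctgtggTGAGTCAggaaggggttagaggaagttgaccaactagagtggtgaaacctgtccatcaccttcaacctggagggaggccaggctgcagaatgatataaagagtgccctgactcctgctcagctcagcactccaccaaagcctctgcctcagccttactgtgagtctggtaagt
SPRR1B, chr1:153030953-153031252, plus strand: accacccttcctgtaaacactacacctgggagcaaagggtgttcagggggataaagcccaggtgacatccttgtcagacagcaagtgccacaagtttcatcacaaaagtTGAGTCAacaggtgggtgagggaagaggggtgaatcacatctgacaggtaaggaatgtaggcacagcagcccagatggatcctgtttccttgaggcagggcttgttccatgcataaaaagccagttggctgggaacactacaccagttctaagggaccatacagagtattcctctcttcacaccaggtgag
SPRR2A, chr1:153057463-153057762, minus strand: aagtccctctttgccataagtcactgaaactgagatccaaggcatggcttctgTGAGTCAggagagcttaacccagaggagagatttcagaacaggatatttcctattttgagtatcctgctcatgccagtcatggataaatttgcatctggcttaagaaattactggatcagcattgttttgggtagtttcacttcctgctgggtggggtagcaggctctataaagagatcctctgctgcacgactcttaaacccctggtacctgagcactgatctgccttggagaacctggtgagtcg
FLG, chr1:152325190-152325489, minus strand: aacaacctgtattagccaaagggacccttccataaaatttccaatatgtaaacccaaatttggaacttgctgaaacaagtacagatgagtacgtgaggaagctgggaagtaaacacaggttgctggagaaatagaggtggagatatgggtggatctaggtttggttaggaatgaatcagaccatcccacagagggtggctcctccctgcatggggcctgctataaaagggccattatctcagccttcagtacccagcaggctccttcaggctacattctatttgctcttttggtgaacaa
The motif was present in the windows of IVL, SPRR1A, SPRR1B, SPRR2A, SPRR3 and SBSN, and SBSN held it at 2 positions. Its first base lay 123 bases before the start of IVL, 141 before that of SPRR1B and 197 before that of SPRR2A. The windows of FLG and of both GRHL3 starts did not hold it. Among all 35116 promoter windows of this length, 4.95% held the motif on either strand. The letters AACNGGTT, searched for grainyhead factors such as GRHL3, and CCGTTA, searched for OVOL factors, occurred in 1.73% and 3.07% of all windows and in none of the members' windows. These are matches of letters and were not tested as binding sites.

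In the count tables, the 9 libraries held between 15337296 and 18028419 counts. Scaled to library size they are given as CPM. Counts were compared with edgeR's quasi-likelihood test over 13845 genes, with p-values adjusted by the Benjamini-Hochberg method over all of them, and a gene is said to rise or fall only where its adjusted p was under 0.05. Globin transcripts were high in 5 libraries. The globin genes HBB, HBA1 and HBA2 together had 597, 1244 and 7 counts in A1 to A3, 4, 8 and 8381 in B1 to B3, and 7336, 7457 and 3 in Nc1 to Nc3. The 4 libraries with 8 globin counts or fewer, A3, B1, B2 and Nc3, are called the low-globin libraries. The leukocyte gene PTPRC had 36, 38 and 38 counts in A, 18, 43 and 135 in B and 103, 78 and 12 in control. All 8 blood markers were tested and none passed in any comparison, while their summed counts ran between 45 and 1310 in A, 25 and 8712 in B, and 16 and 7726 in control. Of 8 fibroblast markers, COL3A1, DCN and LUM had counts in A1 and A2 alone, 9 to 31 each, and 0 in every other library. The summed counts of the list were 117, 193 and 27 in A, 40, 64 and 64 in B, and 53, 48 and 70 in control. Of 6 endothelial markers, CDH5 rose in B (185, 230 and 206 counts, against 52, 31 and 45 in control), whereas VWF and KDR had at most 4 counts in any library. All 10 keratinocyte markers were tested. ITGB4, COL17A1 and SFN rose in A against control, where 2.72% of all tested genes were called, 1.76% higher. In B against control 5 of the 10 fell, where 13.4% of all tested genes were called, 7.24% lower. In B against A 8 of the 10 fell and none rose, where 18% of all tested genes were called, 9.25% lower. KRT14 was low, with 19, 12 and 20 counts in A, 2, 2 and 3 in B and 9, 8 and 15 in control. With the replicate number as a block in A against control, where 34.8% of all tested genes were called, 5 of 6 tested blood markers fell in A, and of the 10 keratinocyte markers 6 rose and 2 fell. Of 6 melanocyte markers, PMEL rose and MITF fell in B (PMEL with 43, 38 and 42 counts in B and 11, 18 and 22 in control), and TYR had no count. What part these transcripts have in the results was not tested.

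The transcript per length is given by the deposited FPKM, which scales fragments by gene length and library size. IVL had the highest mean FPKM of the 10 genes in every group, at 3.46 ± 0.211 in A, 5.13 ± 0.478 in B and 4.29 ± 0.559 in control (SD, n = 3 each). In A the next genes in order were SPRR1B, whose range overlapped that of IVL, OVOL1 and SPRR2A. In B IVL did not overlap the next, and the order went on with OVOL1, SPRR1A, SPRR1B and SPRR2A. In control SPRR2A at 3.56 ± 0.561, SPRR1B at 2.47 ± 0.474 and OVOL1 at 2.10 ± 0.455 FPKM followed, and each neighbour in this order overlapped the next in range. SPRR2A thus stood at place 4 in A, 5 in B and 2 in control. GRHL3, TGM1 and FLG lay below 0.5 FPKM in every library, and SPRR3 and SBSN had 5 counts or fewer. FLG has an annotated length of 12747 bases, so that 15 to 25 counts in control came to 0.0922 ± 0.0218 FPKM. SPRR1A is annotated over 270 bases only, and its 0 to 9 counts make its FPKM uncertain.

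**Figure D1:**
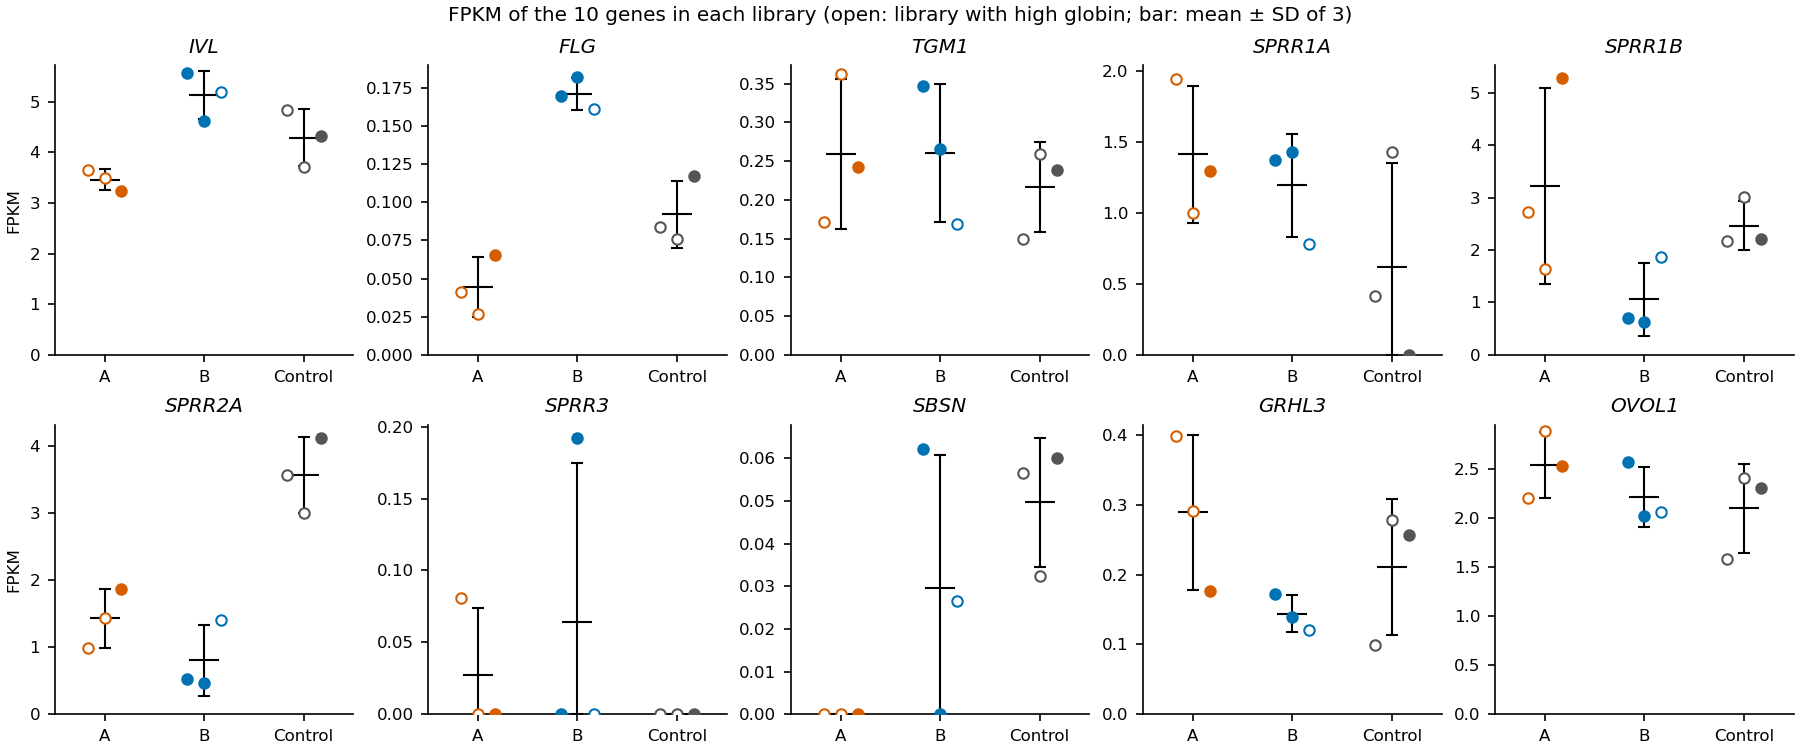
FPKM of the 10 genes (vertical axes, linear from 0 and different for each gene) in each library of A, B and control; points are libraries, open where the library has high globin, and bars give the mean ± SD of 3, cut at 0. SPRR2A lies between 0.467 and 1.87 FPKM in the 6 A and B libraries and between 3.00 and 4.12 in control.

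IVL encodes involucrin, the early scaffold of the cornified envelope (ENSG00000163207, chromosome 1, 152908545 to 152911886 on GRCh38). It had 135, 111 and 100 counts in A, 194, 180 and 213 in B and 185, 124 and 156 in control. Scaled to library size, every A library was below every B and every control library, and the B and control ranges overlapped. IVL rose in B against A by 0.56 ± 0.159 on the log2 scale (SE), 1.48-fold, with an adjusted p of 0.0232. Against control it was at -0.29 ± 0.161 in A (adjusted p = 0.288) and 0.27 ± 0.156 in B (adjusted p = 0.277), neither past the threshold. The call in B against A was lost without A2 (0.57, adjusted p = 0.0599), without A3 (0.51, 0.106), without B3 (0.56, 0.0704) and on the 4 low-globin libraries (0.68, 0.313). In bulk RNA, fewer cells expressing a gene and less RNA per cell cannot be told apart, for this gene and for all others here.

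FLG encodes profilaggrin (ENSG00000143631, chromosome 1, 152302175 to 152325203). It had 9, 5 and 12 counts in A, 35, 42 and 39 in B and 19, 15 and 25 in control. All 3 B libraries were the highest, all 3 A libraries the lowest, and control lay between them with no overlap. FLG rose in B against A by 1.93 ± 0.361 on the log2 scale, 3.82-fold (adjusted p = 0.00200). The call held with any single library left out, with adjusted p between 0.00139 and 0.0142, and was lost on the 4 low-globin libraries (1.44, adjusted p = 0.213), where A and control have 1 library each. In limma on log2(FPKM + 0.1), a scale that understates the change of low genes, it was 0.91 (adjusted p = 0.0118). Against control FLG was at 0.90 ± 0.321 in B (adjusted p = 0.0746) and at -1.04 ± 0.386 in A (adjusted p = 0.139), neither past the threshold. With offsets for gene length the B difference passed (1.01, adjusted p = 0.0422).

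The antisense gene FLG-AS1 overlaps FLG on the other strand. It was looked at after the values of FLG were seen. FLG-AS1 had 5, 3 and 2 counts in A, 13, 26 and 31 in B and 17, 11 and 11 in control, so the A libraries were again the lowest. It rose in B against A by 2.55 ± 0.478 (adjusted p = 0.00206), and this was lost on the low-globin libraries (2.97, adjusted p = 0.0661). Of the 100-base windows of the FLG transcript, 4.02% are shared with FLG-AS1 in antisense. How strand was handled in the counting is not given in the sources used here. Reads of the 2 genes over that stretch therefore cannot be told apart.

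**Figure D2:**
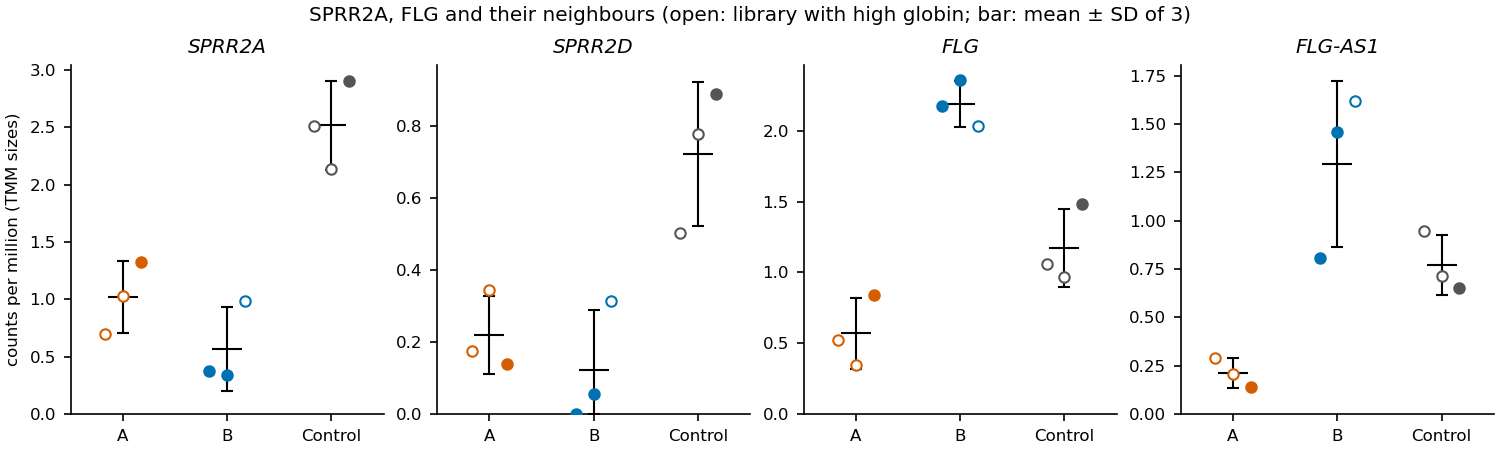
CPM, scaled to TMM library sizes (vertical axes from 0), of SPRR2A, its relative SPRR2D, FLG and its antisense partner FLG-AS1 in each library of A, B and control; open points are libraries with high globin and bars give the mean ± SD of 3, cut at 0. SPRR2A and SPRR2D are highest in control, and FLG and FLG-AS1 are lowest in A.

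TGM1, the membrane-bound transglutaminase that cross-links the envelope, had 11, 20 and 13 counts in A, 21, 18 and 12 in B and 10, 15 and 15 in control. The 3 groups overlapped. Its differences were 0.27 ± 0.424 in A against control, 0.28 ± 0.416 in B against control and 0.01 ± 0.411 in B against A (adjusted p = 0.734, 0.705 and 0.993). No difference of TGM1 was detectable at this depth, and this does not show that its level was alike in the groups.

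SPRR2A encodes a small proline-rich cross-bridging protein (ENSG00000241794, chromosome 1, 153056113 to 153057537, minus strand). It had 12, 15 and 19 counts in A, 6, 6 and 19 in B and 45, 33 and 49 in control. All 6 A and B libraries were below all 3 control libraries, and B3 lay within the range of A where B1 and B2 were below it, after scaling to library size. In B against control SPRR2A fell by 2.11 ± 0.397 on the log2 scale, 4.32-fold (adjusted p = 0.00440). It was the 1 member of the 7 tested that passed in B against control, a comparison in which 13.4% of all tested genes were called, 6.12% higher and 7.24% lower. It also passed 1 on the log2 scale, as 2.41% of all tested genes did. The call held under all 19 other settings run, with an adjusted p of at most 0.0221. These settings are not independent tests. Fits without an A library keep every B and control library, and the replicate block on all 9 libraries says nothing on stability for B. Without B3 the difference was -2.81, a change of more than 1.5 times in fold (adjusted p = 0.00316). On the 4 low-globin libraries, where Nc3 is the only control library, it was -3.03.

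In A against control, none of the 7 tested members passed in edgeR, where 2.72% of all tested genes did, 1.76% higher and 0.953% lower, and 0.599% also passed 1 on the log2 scale. SPRR2A and FLG had an unadjusted p under 0.05. DESeq2 called none of the 2 members to which it gave an adjusted p, and limma called none of 7. SPRR2A stood at -1.31 ± 0.376 (adjusted p = 0.0735). Control and A libraries of the same number varied together, so the number was also used as a block on those 6 libraries, an alternative added after seeing the data. In that fit SPRR2A fell by 1.34 in A (adjusted p = 0.00361) and FLG fell by 1.06 (adjusted p = 0.0478), 2 of the 7 members, while 4601 of 13216 genes, 34.8%, were called there, 16.5% higher and 18.3% lower. The number of genes called in A without the block, 376, was 910 without A1, 101 without A2, 114 without A3, 209 without Nc1, 124 without Nc3 and 24 on the low-globin libraries. Of the 376, 244 were higher and 132 lower, against 191 and 177 with upper-quartile scaling and 442 and 365 in DESeq2. The difference in SPRR2A between B and A was -0.80 ± 0.441 (adjusted p = 0.224), and was -1.49 without B3 (adjusted p = 0.0652) and -1.87 on the low-globin libraries (adjusted p = 0.112), which does not show that the treated groups act alike.

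The SPRR2 genes are close copies. Of the 100-base windows of SPRR2A, 20.3% also occur in SPRR2B, SPRR2D or SPRR2E, so that reads may have been exchanged among them. SPRR2D, too low to be tested, had 3, 5 and 2 counts in A, 0, 1 and 6 in B and 9, 12 and 15 in control. Summed over the 6 SPRR2 genes, the level was 1.29 ± 0.356 CPM in A, 0.752 ± 0.485 in B and 3.36 ± 0.482 in control (SD, n = 3 each), a sum chosen after the values were seen. In the sum every control library was above every A and B library. SPRR2A itself held 45, 33 and 49 of the 56, 47 and 66 summed counts in control, so the sum is not separate evidence.

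SPRR1B encodes a second cross-bridging protein of the same cluster (ENSG00000169469, chromosome 1, 153031202 to 153032900). It had 29, 15 and 47 counts in A, 7, 7 and 22 in B and 24, 29 and 23 in control. A3 stood high among the A libraries and B3 high among the B libraries, and the A and B ranges overlapped. In B against A SPRR1B fell by 1.56 ± 0.467 on the log2 scale, 2.95-fold (adjusted p = 0.0297). This was lost without A3 (-1.03, adjusted p = 0.202), B1 (-1.31, 0.0937) or B2 (-1.26, 0.139). Without B3 it was -2.25 (adjusted p = 0.0142). On the low-globin libraries it was -2.96, where A3, the highest of the A libraries, is the only A library. Against control SPRR1B was at -1.17 ± 0.475 in B (adjusted p = 0.112) and 0.39 ± 0.426 in A (adjusted p = 0.610). With no filter on low counts the B difference passed (-1.22, adjusted p = 0.0256), and it was -1.86 without B3 (adjusted p = 0.0669) and -1.73 on the low-globin libraries (adjusted p = 0.366).

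In B against A, 3 of the 7 tested members were called, IVL and FLG higher and SPRR1B lower, beside 18% of all tested genes, 8.79% higher and 9.25% lower. FLG and SPRR1B also passed 1 on the log2 scale, as 4.28% of all tested genes did. The 2498 genes called, 1217 higher and 1281 lower, became 1939 and 712 with upper-quartile scaling and 1346 and 799 with library totals. Their number was 1544 without A2, 1160 without A3, 1371 without B2, 1195 without B3 and 481 on the low-globin libraries. The 1850 genes called in B against control, 847 higher and 1003 lower, became 1242 and 649 with upper-quartile scaling and 750 and 492 with library totals, and their number was 489 without B3, 1139 without Nc1, 868 without Nc3 and 56 on the low-globin libraries. B3, the B library with high globin, held the highest SPRR2A and SPRR1B of the B libraries. In A the low-globin library A3 held the highest of both genes. In control the low-globin Nc3 held the highest SPRR2A, and Nc2, with high globin, the highest SPRR1B.

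**Figure D3:**
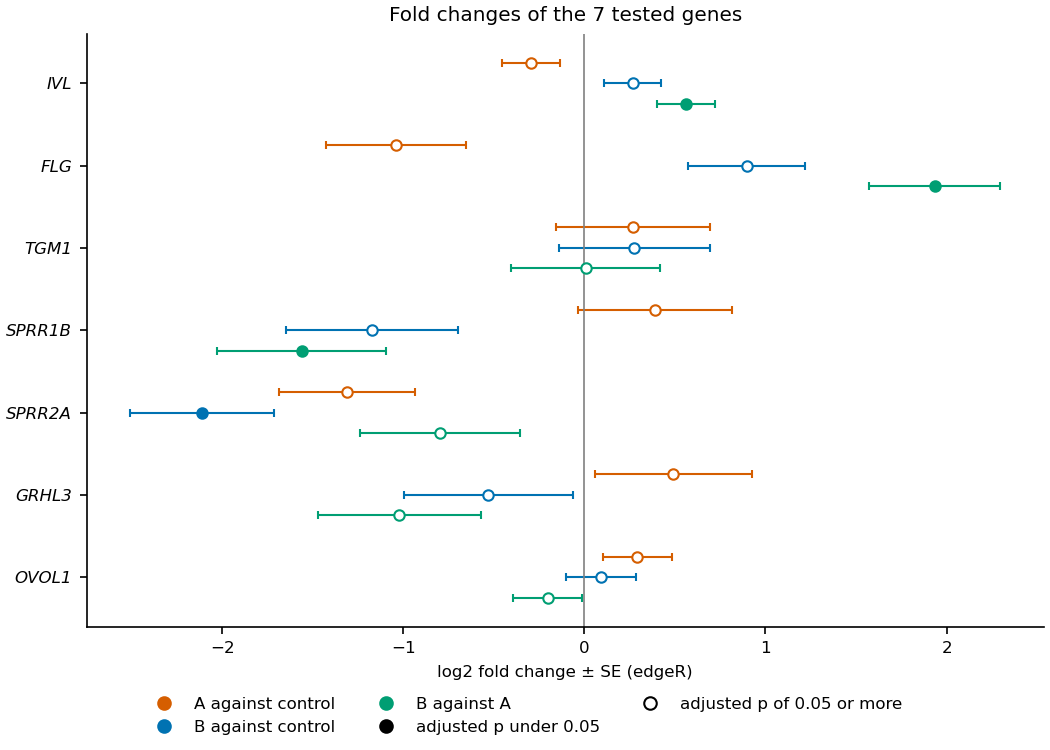
log2 fold change (horizontal axis) ± SE from edgeR for the 7 tested genes in A against control, B against control and B against A; filled points have an adjusted p under 0.05. Filled points are SPRR2A in B against control, and IVL, FLG and SPRR1B in B against A.

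SPRR1A, the near relative of SPRR1B, had 9, 4 and 5 counts in A, 6, 7 and 4 in B and 2, 6 and 0 in control. SPRR3 had 2, 0 and 0 counts in A, 0, 5 and 0 in B and 0 in all 3 control libraries, and each of these counts came from 1 library of its group. SBSN, which encodes suprabasin, had 0 in all 3 A libraries, 2, 0 and 1 in B and 2, 1 and 2 in control. These 3 genes did not pass the filter of 0.603 CPM in 3 libraries and were not tested. Only a limit can be set at counts near 0: a count of 3 in a library corresponds to between 0.166 and 0.196 CPM, covering counting error only.

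GRHL3, a grainyhead-like factor required for barrier formation in mice, had 27, 17 and 10 counts in A, 11, 10 and 9 in B and 7, 17 and 17 in control. A1 was high and Nc1 low among their groups, and both A and B overlapped control. The differences were 0.49 in A against control (adjusted p = 0.519), -0.53 in B against control (adjusted p = 0.483) and -1.02 ± 0.451 in B against A (adjusted p = 0.127). OVOL1, a zinc finger repressor that restrains proliferation of epidermal progenitors in mice, had 146, 164 and 140 counts in A, 160, 141 and 151 in B and 108, 144 and 149 in control. Its libraries overlapped in all groups, and its differences were 0.29, 0.09 and -0.20 (adjusted p = 0.375, 0.798 and 0.492) in the same order. Of the OVOL1 transcript windows, 29.1% are shared in antisense with a gene that had 0 counts in every library.

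The genes whose level followed a member most closely over the 9 libraries were sought among those averaging at least 100 counts. For IVL they were EPB41L1, LITAF and RCSD1 (Pearson r of 0.963, 0.956 and 0.954 on log2 CPM). For OVOL1 they were DDA1, TWF2 and CSAG1 (0.976, 0.976 and 0.973), for TGM1 PICK1, EEF1D and CCS (0.899, 0.894 and 0.894) and for GRHL3 IL1R2, ZFP64 and PRPF31 (0.887, 0.848 and 0.842). They are the highest of 9728 or 9729 correlations for each gene, over 9 libraries that fall into the 3 groups, and are given as a description.

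The stretch of chromosome 1 from FLG to SPRR2A, 755 kb, lists 33 protein-coding genes. Of these, 19 had no count in any library and 5 were tested, the 4 members IVL, FLG, SPRR1B and SPRR2A and SPRR4, an SPRR gene that was called in no comparison. The stretch was chosen after the values were seen.

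Other genes of the cornified envelope and late differentiation were counted over a list of 42, of which 11 were tested and 14 had no count at all, among them LOR, which encodes loricrin. In A against control LYPD3 and ECM1 rose and SCEL fell, where 2.72% of all tested genes were called. With the block, where 34.8% were called (16.5% higher and 18.3% lower), EVPL rose as well. SCEL, which encodes the envelope precursor sciellin, had 0.457, 0.403 and 0.563 FPKM in A and 1.80, 1.58 and 1.74 in control, a fall of 1.83 ± 0.250 (adjusted p = 0.000862). ECM1, a secreted matrix protein of the epidermis, had 4.74 ± 0.117 FPKM in A and 2.05 ± 0.216 in control, a rise of 1.23 ± 0.148 (adjusted p = 0.000318). LYPD3 rose by 0.73 ± 0.148 in A (adjusted p = 0.0144) and by 0.48 ± 0.148 in B (adjusted p = 0.0405).

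In B against control PPL, CSTA and LYPD3 rose and none of the 11 fell. Of all tested genes 6.12% were called higher there and 7.24% lower. PPL encodes periplakin, which anchors the envelope to filaments, and had 13.2, 12.9 and 14.3 FPKM in B and 8.08, 8.21 and 8.80 in control, a rise of 0.70 ± 0.107 (adjusted p = 0.00152). CSTA, a protease inhibitor cross-linked into the envelope, had 66.8 ± 3.53 FPKM in B and 46.0 ± 5.28 in control, a rise of 0.55 ± 0.120 (adjusted p = 0.00868). CYSRT1 and KRT10, the other abundant genes of the list, were at 0.39 (adjusted p = 0.113) and -0.00172 (adjusted p = 0.996). The median log2 fold change of the 11 tested genes was 0.205 in A and 0.386 in B, against 0.0088 and -0.00203 over all tested genes.

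Of 24 genes of barrier lipids and desquamation, 16 were tested. ALOXE3, a lipoxygenase of the barrier lipids, had 1.29, 0.846 and 1.30 FPKM in A and 0.568, 0.497 and 0.555 in control, a rise of 1.09 ± 0.248 (adjusted p = 0.0259). With the block 4 of the 16 rose and 3 fell in A, beside 34.8% of all tested genes called there. PRSS8, the membrane serine protease prostasin, rose in B by 0.49 ± 0.128 (adjusted p = 0.0218). KLK5 and ST14, among the most abundant of the list, had adjusted p of at least 0.261 against control without the block. With it ST14 rose in A. The medians were 0.102 in A and 0.137 in B.

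Of 31 other regulators, 27 were tested. In A against control SOX9 rose while GATA3 and ELF3 fell, where 2.72% of all tested genes were called. With the block 7 rose and 9 fell of 26, beside 16.5% and 18.3% of all tested genes. SOX9 had 12.7, 13.5 and 11.0 FPKM in A and 8.05, 6.50 and 6.67 in control, a rise of 0.82 ± 0.127 (adjusted p = 0.00268). GATA3 fell by 0.67 ± 0.156 (adjusted p = 0.0307). In B against control KLF4, HES1 and ELF3 rose and EHF fell, where 13.4% of all tested genes were called, 6.12% higher and 7.24% lower. ELF3, an ETS factor that activates SPRR promoters in cultured keratinocytes, had 14.1, 14.9 and 15.1 FPKM in A, 42.4, 35.8 and 37.7 in B and 18.8, 21.9 and 23.8 in control. Its 3 groups did not overlap, with a fall of 0.53 ± 0.126 in A (adjusted p = 0.0324) and a rise of 0.85 ± 0.126 in B (adjusted p = 0.00109). HES1, a target of Notch, rose by 0.47 ± 0.128 (adjusted p = 0.0262), and KLF4, a barrier regulator in mice, by 0.49 ± 0.148 (adjusted p = 0.0377). EHF fell by 0.53 ± 0.161 (adjusted p = 0.0401). ID1 and CEBPB, among the most abundant of the list, were called in neither comparison without the block. With it CEBPB rose and ID1 fell in A. The medians were 0.0113 in A and -0.0279 in B.

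**Figure D4:**
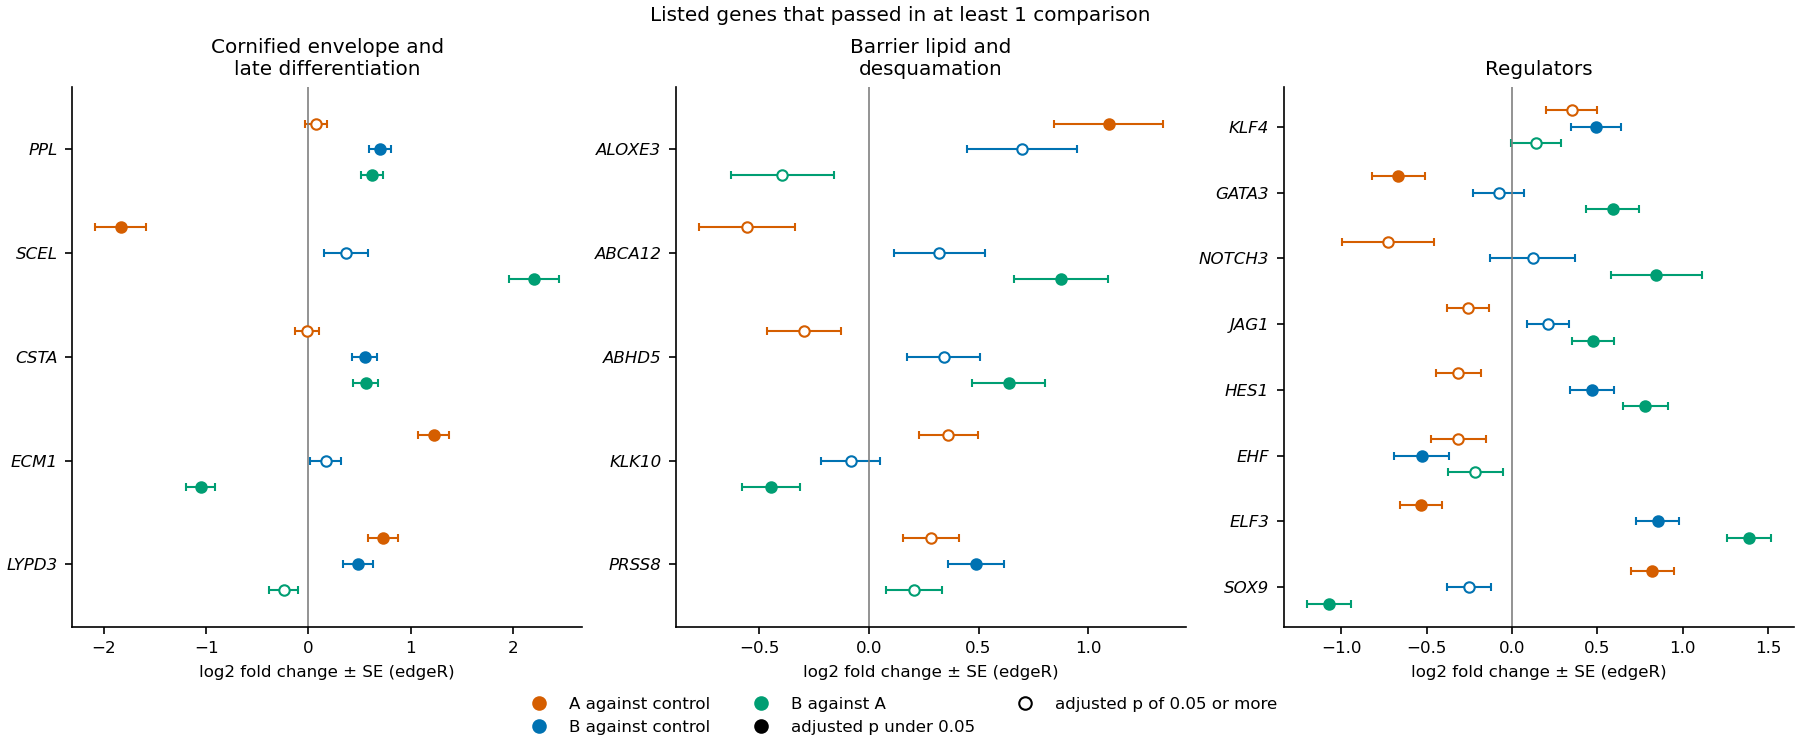
log2 fold change (horizontal axes, which differ between panels) ± SE from edgeR for each listed gene that passed in at least 1 comparison, by list, in A against control, B against control and B against A; filled points have an adjusted p under 0.05. SCEL, GATA3 and ELF3 are lower in A than in control, and ELF3 is higher in B than in control.

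These calls varied with the processing and with the libraries. EHF in B lost its call with library totals, with upper-quartile scaling and in limma. KLF4 and LYPD3 in B lost theirs with library totals, with no filter on low counts and on the 2 groups alone. HES1 in B lost its call with no filter on low counts. On the 4 low-globin libraries none of the 3 lists had a call against control, with SCEL in A at -1.65 (adjusted p = 0.0624) and PPL in B at 0.57 (adjusted p = 0.709), and the calls of ALOXE3 and GATA3 in A were also lost with the globin covariate (1.06, adjusted p = 0.0590, and -0.68, adjusted p = 0.0545). Leaving out 1 library at a time, SCEL, ECM1 and SOX9 in A and PPL and ELF3 in B kept their calls. LYPD3 in A lost its call without A2 or Nc3 (0.68 to 0.82 over the 9 fits), ALOXE3 without A3 or any control library (1.00 to 1.26), GATA3 without A2, A3, Nc1 or Nc3 (-0.76 to -0.61), and ELF3 in A without any A library, Nc2 or Nc3 (-0.62 to -0.46). CSTA in B lost its call without B3 (0.53, adjusted p = 0.0508), HES1 without B2, B3 or Nc3 (0.43 to 0.55) and PRSS8 without B1, B3, Nc1 or Nc3 (0.40 to 0.57). KLF4 lost its call without A3, B2, B3 or any control library (0.42 to 0.58), EHF without A2, A3, B1, B3, Nc1 or Nc3 (-0.63 to -0.37), and LYPD3 in B without any single library except A1 and B2 (0.43 to 0.58).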

How the data were processed

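The labels' protocols describe total RNA of HaCaT cells sequenced in read pairs, and per the submitters' processing notes GRCh38, HISAT2, StringTie and FastQC were used, with no versions given. The authors deposited whole-number counts per gene, not normalized. The deposited FPKM equal the count divided by gene length and a library constant, which was 0.936 to 1.066 times the library total. The annotation release, strand setting and handling of reads that match several genes were not stated. Of 9 library columns, Nc was read as control and A and B as treated, by elimination against the 9 labelled samples. If this reading is wrong, the comparisons are mislabelled.

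Counts of the 13845 genes passing filterByExpr (minimum count 10) were fitted in edgeR 4.0.16 with TMM sizes over all 9 libraries (quasi-likelihood test, Benjamini-Hochberg, 0.05, SE from the F statistic). DESeq2 1.42.0 and limma 3.58.1 were alternatives, in R 4.3.3. The edgeR fit was tested on simulated counts drawn independently for each library. They lack the deviations that libraries share here, so that test cannot measure error rates in these data. Motifs and shared windows were searched with Python 3.11.15 in GENCODE release 29 and RefSeq. Same-numbered control and A libraries deviated together (r = 0.822, 0.582 and 0.436), so the numbers were taken as pairs there. By number, B libraries did not pair with control (-0.522, -0.593 and -0.221) or with A (-0.501, -0.6 and -0.289). They deviated with libraries of other numbers instead, as given below. The block on control and A was added after these correlations and counts of calls had been seen. None of the 9 pairs of libraries within a group agreed within counting noise. Depth alone therefore does not give the precision.

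The members and lists were chosen with earlier results of these data known. Named are all members, listed genes called against control, the 3 most abundant of each list apart from genes that are not reported here, and for 4 members the 3 most alike genes. Listed genes called in B against A are given among the results looked at again.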

Additional observations from a re-analysis of the deposited data

Results flagged for a closer look

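The treated groups A and B differed from each other, by the test of B against A itself, in 3 of the 7 tested members, where 2498 of all 13845 tested genes, 18%, were called. FLG was higher in B by 1.93 on the log2 scale (adjusted p = 0.00200) and IVL by 0.56 (adjusted p = 0.0232), while SPRR1B stood at -1.56 (adjusted p = 0.0297).

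In B against A, 3 of the 11 tested genes of the cornified envelope list were called higher and 1 lower. Of the 16 tested barrier genes 2 were called higher and 1 lower, and of the 27 tested regulators 5 and 1. Among all tested genes 18% were called, 8.79% higher and 9.25% lower. Of the other cornified envelope genes, SCEL was higher in B than in A by 2.20 (adjusted p = 3.07e-05), PPL by 0.62 (adjusted p = 0.00118) and CSTA by 0.56 (adjusted p = 0.00494), and ECM1 stood at -1.05 (adjusted p = 0.000202). Of the barrier genes, ABCA12, a lipid transporter, was at 0.88 (adjusted p = 0.0114), ABHD5 at 0.64 (adjusted p = 0.0166) and the protease KLK10 at -0.45 (adjusted p = 0.0305). Of the regulators, ELF3 was at 1.39 (adjusted p = 4.39e-06), NOTCH3 at 0.84 (adjusted p = 0.0374), HES1 at 0.78 (adjusted p = 0.000898), GATA3 at 0.59 (adjusted p = 0.0167), JAG1 at 0.47 (adjusted p = 0.0155) and SOX9 at -1.07 (adjusted p = 5.88e-05). Leaving out 1 library at a time, SCEL, PPL, CSTA, ECM1, ELF3, HES1 and SOX9 kept their calls, whereas ABCA12 lost its call without A2, GATA3 without A3, JAG1 without A2 or A3, ABHD5 and KLK10 without A2, A3, B2 or B3, and NOTCH3 without B1, B3 or any A library. On the 4 low-globin libraries SCEL, ECM1, ELF3, HES1 and SOX9 kept theirs.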

How the results depend on the processing

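Against the 376 genes called in A against control, DESeq2 called 807, the fit with no filter on low counts 992, limma on FPKM 226, the globin covariate 235, gene length offsets 579 and the 4 low-globin libraries 24. Leaving out 1 library gave 101 to 910 genes there, 489 to 2088 in B against control and 1160 to 3197 in B against A, and the low-globin libraries gave 56 and 481 in those 2 comparisons. With the replicate block on all 9 libraries A against control had 244 calls, and on control and A alone 4601. The pairing of control and A by number was read from their correlations and not from the labels. B libraries deviated with libraries of other numbers, B2 with Nc1 (r = 0.617) and A1 (0.637), B1 with Nc3 (0.448) and A3 (0.479), and B3 with Nc2 (0.306) and A2 (0.473), a hint from the data and not from the design, and no other pairing was fitted. The block on 9 libraries joins B to same-numbered libraries that deviate the other way, so its outcome for B says nothing on stability. It changed no member's call, and of the 28 calls of listed genes it ended 5, GATA3 and ELF3 in A, KLF4 and LYPD3 in B and KLK10 in B against A. Library totals and upper-quartile scaling also ended the call of KLK10 in B against A, and limma that of NOTCH3. DESeq2 and gene length offsets ended none of the 28.

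The direction of 4 members changed where they had passed no test. On the low-globin libraries TGM1 in A was at -0.00333, GRHL3 in A at -0.56 and OVOL1 in B at -0.00804, and with the globin covariate TGM1 in B against A was at -0.054. Leaving out 1 library, TGM1 ran between -0.057 and 0.51 in A and between -0.24 and 0.33 in B against A, SPRR1B in A between -0.14 and 0.70, and OVOL1 in B between -0.087 and 0.22. IVL, FLG and SPRR2A kept their direction in each comparison under every alternative run.

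Upper-quartile scaling moved the median of all tested genes to 0.104 in B against A, from -0.0209, and FLG and IVL there were at 2.06 and 0.68. DESeq2 gave an adjusted p to 2 of the 7 members in A against control, so the other 5 have none. SPRR2A in A passed with no filter (adjusted p = 0.00936), on the 2 groups alone (0.0460), without B3 (0.0472) and with length offsets (0.0445), and not under the other alternatives apart from the block. The library constants of the deposited FPKM were 0.9908 to 1.016 times the TMM sizes, so TMM scaling could hardly move the levels. The 30 mean FPKM levels moved by less than 1 SD with it, which says nothing on stability. The pseudocount in plots was not varied, since the plots use linear axes. The limits are depth, with 7 of the 10 genes under 20 counts in most libraries, and the low-globin libraries, which leave 1 library each in A and control, assumed to vary like B.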
